A study of Mus musculus with 12 samples.

Results

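Genes whose RNA level followed the coreceptor on the T cell surface, and not the lineage of the cell, were sought by comparing all CD4 with all CD8 libraries of B6 and FlipFlop mice. In FlipFlop mice the *Cd8a* loci encode CD4 and the *Cd4* loci encode CD8αβ.1, on both copies of chromosome 6, a design that pairs MHC-II-selected CD4 T cells with the cytotoxic lineage and MHC-I-selected CD8 T cells with the helper lineage. The altered *Cd8a* allele was made in ES cells of strain 129 and the altered *Cd4* allele in B6 ES cells, so strain 129 genes can remain around the former. The 4 groups of T cells electronically sorted from LN of female mice were measured by RNA sequencing, with 3 libraries each: B6 CD4 and B6 CD8 T cells from 10-week-old mice, and FlipFlop CD4 and FlipFlop CD8 T cells from 14-week-old mice. By these labels age changed together with strain, but not with the coreceptor; the methods give another, general age range for all mice. The labels do not say that the 3 libraries of a group came from separate mice, so p-values measure the spread between these samples, which may be technical.

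The coreceptor effect is the mean of the 6 CD4 libraries minus the mean of the 6 CD8 libraries on the log2(CPM + 0.5) scale, where CPM are reads scaled to the library total and by TMM, a factor that corrects for library composition. A gene was a member when this effect had an adjusted p under 0.05 in limma and when the CD4 minus CD8 difference had the same sign in B6 and in FlipFlop mice. Of 12809 genes in the table, 11595 had at least 1 CPM in at least 3 libraries and were tested. The members numbered 245, or 2.11% of the genes tested, with 94 higher in CD4 (0.811%) and 151 higher in CD8 libraries (1.3%). Each effect compares 6 with 6 libraries, and errors given with effects are SE. The libraries held 26570285 to 33115728 reads on the listed genes, and 3 reads, the level that a count of 0 allows, were 0.0857 to 0.120 CPM per library. This floor covers counting error only.

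CD4 and CD8 are the coreceptors that bind MHC class II and class I molecules, respectively, beside the TCR, and both bring the kinase Lck to it. In normal thymocytes the coreceptor and the MHC class of the selecting ligand go together with the lineage: ThPOK, encoded by *Zbtb7b*, directs helper fate, and Runx3 directs cytotoxic fate. In the FlipFlop design the lineage is turned around while the match of coreceptor and MHC class stays, so a gene with the same CD4 minus CD8 sign in both strains moves with the coreceptor and the MHC class together, which cannot be told apart here. The TCR V segments that a cell has rearranged contact peptide and MHC, and T cells with some V segments are known to be more frequent among CD4 or among CD8 T cells.

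Among the V segments that were members, *Trbv12-1* and *Trbv12-2* of the beta locus had the largest coreceptor effects, and their V exons are printed because the count of reads for each depends on telling them apart. On GRCm38 the V exon of *Trbv12-1* lies at chr6:41113775-41114067 and that of *Trbv12-2* at chr6:41119072-41119364, both on the plus strand, and each is the last of 2 exons. The GENCODE M21 sequences are 293 bases long and are identical at 261 positions (89.1%). Capitals mark the 32 bases that differ.
Trbv12-1: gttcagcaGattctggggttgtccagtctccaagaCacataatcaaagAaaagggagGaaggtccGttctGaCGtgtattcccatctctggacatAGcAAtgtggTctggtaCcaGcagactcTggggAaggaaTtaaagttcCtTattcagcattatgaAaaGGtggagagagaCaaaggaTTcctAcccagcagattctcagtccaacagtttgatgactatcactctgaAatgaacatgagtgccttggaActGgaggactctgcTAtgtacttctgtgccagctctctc
Trbv12-2: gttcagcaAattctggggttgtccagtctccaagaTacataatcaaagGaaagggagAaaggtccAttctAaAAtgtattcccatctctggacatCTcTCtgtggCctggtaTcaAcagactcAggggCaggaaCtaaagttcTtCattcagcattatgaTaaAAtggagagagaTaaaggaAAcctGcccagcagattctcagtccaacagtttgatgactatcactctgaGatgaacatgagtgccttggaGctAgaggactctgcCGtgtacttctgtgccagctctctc

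*Trbv12-1* stood at 7.06, 5.78 and 6.89 CPM (CD4) and 27.6, 28.7 and 28.8 CPM (CD8) in B6 mice, and at 1.94, 2.25 and 3.83 CPM (CD4) and 9.26, 10.2 and 10.7 CPM (CD8) in FlipFlop mice. In each strain every CD8 library was above every CD4 library, and the FlipFlop libraries were lower than the B6 libraries of the same coreceptor. The coreceptor effect was -1.90 ± 0.12 (SE, adjusted p = 5.3e-06), with differences of -2.03 in B6 and -1.78 in FlipFlop. As a share of all beta V reads, *Trbv12-1* took 1.17% ± 0.081 in B6 CD4, 5.83% ± 0.19 in B6 CD8, 0.564% ± 0.23 in FlipFlop CD4 and 1.96% ± 0.23 in FlipFlop CD8 T cells (SD, n = 3). *Trbv12-2* stood at 8.0, 7.17 and 7.32 CPM (CD4) and 24.3, 28.7 and 28.1 CPM (CD8) in B6 mice, and at 6.01, 5.84 and 7.18 CPM (CD4) and 12.1, 12.5 and 15.2 CPM (CD8) in FlipFlop mice. The groups again did not overlap within either strain, and the coreceptor effect was -1.39 ± 0.08 (SE, adjusted p = 2.1e-06). The size differed between the strains for *Trbv12-2*, with -1.78 in B6 and -1.01 in FlipFlop (adjusted p of the difference 0.002), whereas for *Trbv12-1* the test of this difference did not pass (adjusted p = 0.45). The Trb locus, *Cd4* and *Cd8a* are on the same chromosome, and within a strain CD4 and CD8 T cells carry the same alleles.

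Beside 2.11% of all tested genes, 8 of 21 tested beta V segments (38.1%) and 22 of 83 tested alpha V segments (26.5%) were members. Segments with identical values raise the alpha count: the members held 18 and the tested segments 73 distinct sets of values. The strains' differences also differed in size (lineage effect called) in 5 of the beta and 13 of the alpha V members, beside 39.3% of all tested genes. Of the beta V segments 4 were higher in CD4 (*Trbv5*, *Trbv19*, *Trbv20* and *Trbv31*) and 4 in CD8 libraries (*Trbv12-1*, *Trbv12-2*, *Trbv17* and *Trbv29*). In B6 mice the *Trbv17* level was 8.34, 8.07 and 7.47 CPM in CD4 libraries compared with 20.7, 17.5 and 17.7 CPM in CD8 libraries, and in FlipFlop mice it was 7.29, 6.31 and 6.28 CPM compared with 8.52, 8.04 and 8.63 CPM. Its libraries did not overlap within either strain (coreceptor effect -0.75 ± 0.07 SE, adjusted p = 7.5e-05), but the difference was larger in B6 at -1.17 than in FlipFlop at -0.32 (adjusted p of the difference 2.9e-04). *Trbv31*, at the end of the locus, agreed in sign only: its difference was 2.17 in B6 and 0.09 in FlipFlop mice, where its CD4 libraries (38.7, 33.8 and 35.5 CPM) overlapped its CD8 libraries (35.3, 32.5 and 33.6 CPM). *Trbv5* was alike, with 1.14 in B6 and 0.07 in FlipFlop. For all 8 beta V members the FlipFlop difference was the smaller, whereas other segments varied, as the plot of beta V shares shows.

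**Figure D1:**
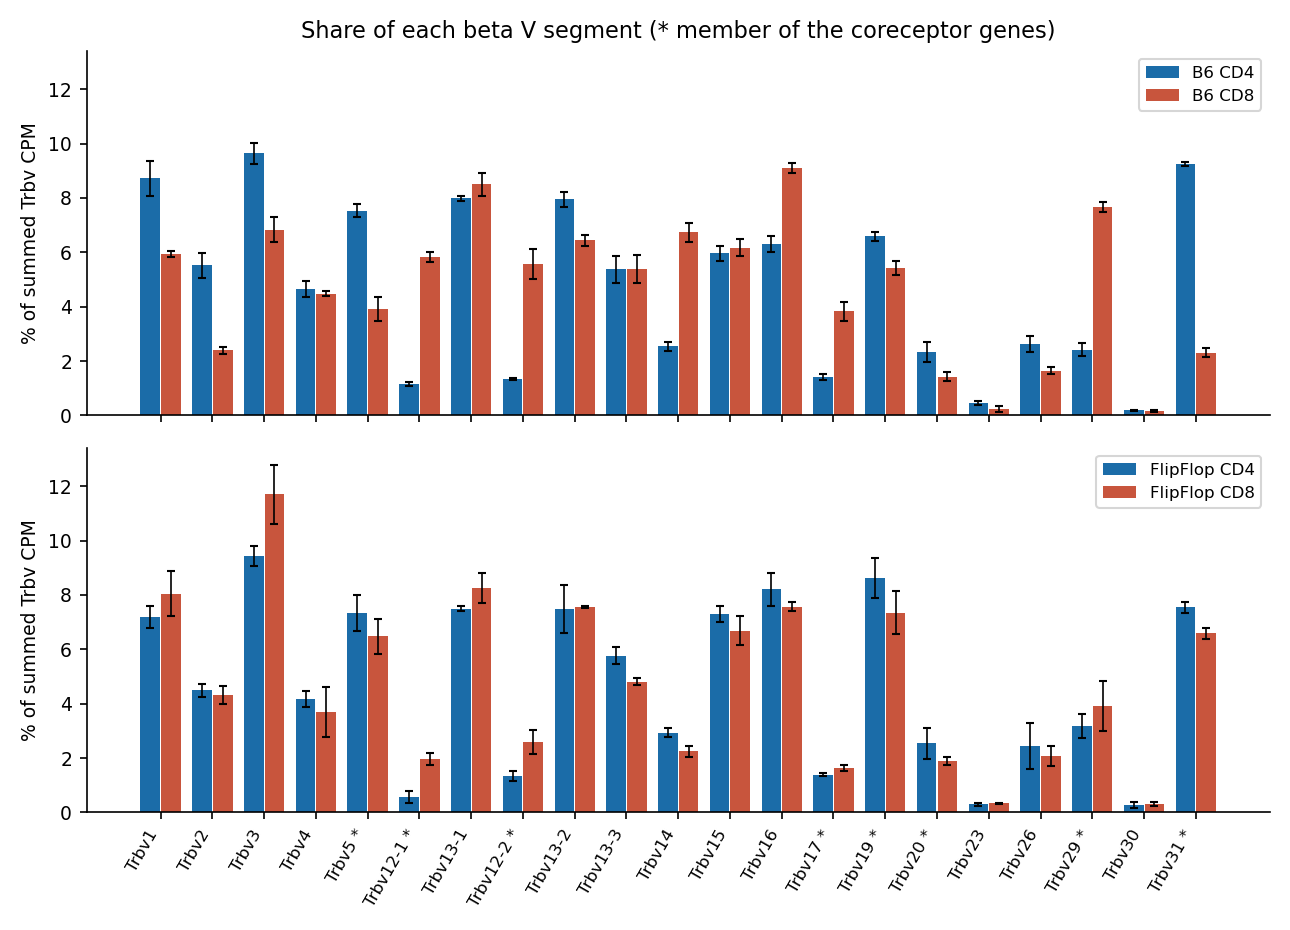
Share of each of the 21 tested beta V segments in the summed beta V signal (percent), in chromosome order, for B6 above and FlipFlop below. Bars are means of 3 libraries and error bars are SD; stars mark members. Trbv12-1 and Trbv12-2 are higher in CD8 than in CD4 T cells of both strains, whereas Trbv31 differs mainly in B6 mice, with 9.25% ± 0.086 in CD4 and 2.31% ± 0.18 in CD8 T cells.

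Of the alpha V segments 17 were higher in CD4 and 5 in CD8 libraries. Those higher in CD8 libraries were *Trav9d-3*, *Trav9n-3*, *Trav12-2*, *Trav16* and *Trav16n*. The CD8 libraries had 7.99, 8.39 and 8.17 CPM of *Trav12-2* in B6 mice and 5.16, 5.94 and 5.55 CPM in FlipFlop mice, compared with 4.53, 4.72 and 5.26 CPM and 3.43, 3.48 and 4.51 CPM, respectively, in the CD4 libraries. All CD8 libraries were above all CD4 libraries of their strain, and the effect was -0.60 ± 0.08 (SE, adjusted p = 0.0011). *Trav9d-3* and *Trav9n-3* had the same value in every library, namely 2.24, 3.1 and 2.85 CPM (CD4) and 5.41, 5.25 and 5.17 CPM (CD8) in B6 libraries and 2.48, 2.44 and 2.74 CPM (CD4) and 6.68, 4.04 and 3.37 CPM (CD8) in FlipFlop libraries. Their V exons are identical at all 294 bases, so they are 1 measurement. Their effect was -0.78 ± 0.14 (SE, adjusted p = 0.0058). In all, 8 alpha V members shared their values with another member, and counted once they left 241 members. Values of single segments of this family are uncertain for this reason.

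On the CD4 side, *Trav6-5* and *Trav9n-4* were among the alpha V segments with non-overlapping libraries. *Trav6-5* stood at 5.33, 6.21 and 5.14 CPM (CD4) and 2.5, 1.65 and 1.92 CPM (CD8) in B6 mice, and at 5.19, 5.25 and 4.53 CPM (CD4) and 4.28, 3.36 and 4.04 CPM (CD8) in FlipFlop mice. The effect was 0.80 ± 0.10 (SE, adjusted p = 7.1e-04), with 1.27 in B6 and 0.32 in FlipFlop, so most of it came from B6 mice (adjusted p of the difference 0.0024). *Trav9n-4* differed by 1.12 in B6 and 0.23 in FlipFlop. The summed alpha V signal was 288 to 312 CPM in B6 CD4 libraries and 223 to 234 CPM in B6 CD8 libraries, but 225 to 249 CPM and 231 to 253 CPM in FlipFlop CD4 and CD8 libraries, which overlap. After each segment was divided by the total of its locus, 16 alpha V segments were members, 14 of them members before, with 9 on the CD4 and 7 on the CD8 side. The same step left all 8 beta V members in place and added *Trbv2*.

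The coreceptor genes themselves were the largest members. *Cd4* stood at 961, 1090.3 and 1016 CPM (CD4) and 2.4, 0.60 and 1.39 CPM (CD8) in B6 mice, and at 719, 652 and 637 CPM (CD4) and 40.9, 42.2 and 43.6 CPM (CD8) in FlipFlop mice. The CD8 libraries had 1496, 1499.6 and 1472 CPM of *Cd8a* in B6 mice and 159, 139 and 138 CPM in FlipFlop mice, compared with 0.827, 0.42 and 1.59 CPM and 0.854, 0.942 and 0.967 CPM, respectively, in the CD4 libraries. Both genes were thus separated in each strain by the sort label, although the FlipFlop CD8 libraries held some *Cd4* signal. The effect was 6.55 ± 0.17 (SE, adjusted p = 4.1e-10) for *Cd4* and -8.38 ± 0.15 (SE, adjusted p = 8.1e-12) for *Cd8a*, and each was smaller in FlipFlop mice (9.13 in B6 and 3.97 in FlipFlop for *Cd4*). *Cd8b1* (the CD8β chain) was not a member: its difference was -6.29 in B6 and 3.73 in FlipFlop mice, where it was high in the CD4 libraries. *Cd4* and *Cd8a* check the labels and, since the coreceptor defined the sort, are no finding. At the limits of the study, p under 0.0001 and more than 5-fold, *Cd4* and *Cd8a* were the only 2 members left.

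Genome-wide, a coreceptor effect was called for 636 genes (5.49% of those tested), and 391 of these had opposite signs in B6 and FlipFlop mice and were left out. The lineage effect, which is the difference between the strains' CD4 minus CD8 differences, was called for 39.3% of the tested genes. The differences had the same sign for only 3445 of the tested genes (29.7%). The genes that define the lineage went the other way: *Zbtb7b* differed by 6.60 in B6 and -5.93 in FlipFlop, *Cd40lg*, the helper T cell ligand of CD40, by 5.87 in B6 and -4.01 in FlipFlop, and *Runx3* by -0.80 in B6 and 1.27 in FlipFlop. *Gata3*, a helper lineage factor, differed by 1.0 in B6 and -1.05 in FlipFlop, *Prf1*, encoding perforin, by -1.39 in B6 and 2.10 in FlipFlop, and *Eomes*, a T-box factor of cytotoxic cells, by -3.20 in B6 and 2.27 in FlipFlop. None of these 6 was a member, as the plot of both differences shows for most genes.

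**Figure D2:**
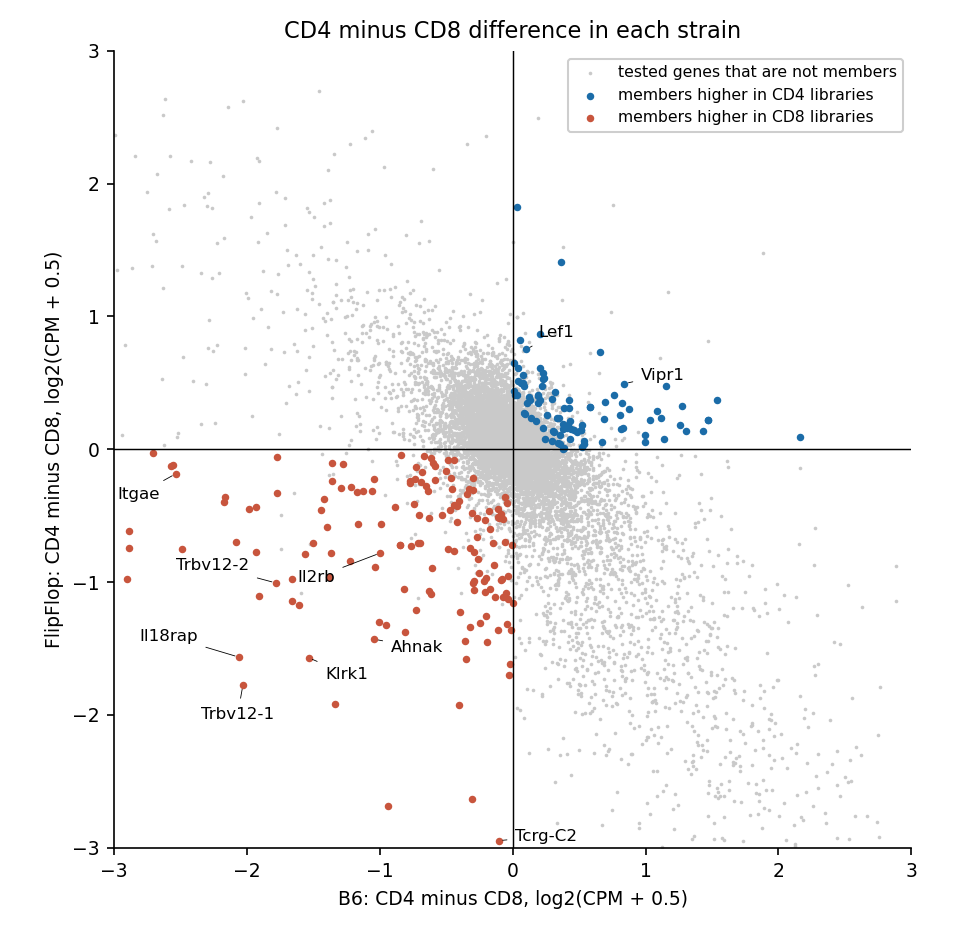
CD4 minus CD8 difference of each gene in B6 (horizontal) and FlipFlop mice (vertical), both in log2(CPM + 0.5); each point is 1 of the 11595 tested genes within 3 units, with 155 genes and 5 members outside. Grey genes run from upper left to lower right, where signs are opposite, and the 245 members lie in the other corners by the rule.

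The members' changes were small. The median fold change was 1.26 for those higher in CD4 and 1.62 for those higher in CD8 libraries, and 2 and 41 genes, respectively, passed 2-fold. The CD4 side was more highly expressed (median 26.4 CPM, against 5.23 CPM on the CD8 side and 25.4 CPM over all tested genes). The smallest effect was 0.16 on the CD4 side and 0.21 on the CD8 side. At the threshold, *Smpdl3b* was just outside with an adjusted p of 0.0515. In 122 of the members the 2 strains' differences also differed in size (lineage effect called), and in 123 this test did not pass. It passed for 39.3% of all tested genes, whatever their signs.

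Stricter rules left fewer genes. All members passed the filter of 1 CPM in 3 libraries, but 13 of them, all on the CD8 side, reached 1 CPM in a single group alone, 7 in B6 CD8 and 6 in FlipFlop CD8 libraries. Such genes were tested only through the group where they are high, and their calls are a description only. In 100 members the CD4 and CD8 libraries did not overlap within either strain, which held for 1.3% of all tested genes. In 51 members the difference was called within B6 and within FlipFlop mice separately (0.44% of tested genes), 6 on the CD4 and 45 on the CD8 side. The 6 were *Cd4*, *Vipr1*, *Gucd1*, *Frat1*, *H2-T10* and the lincRNA *Gm33994*. The FlipFlop difference was under 0.1 in 14 members of the CD4 side and 7 of the CD8 side, and the B6 difference in 14 and 17. The CD4 side also depended on the scaling: without the TMM factor the median difference of all tested genes in FlipFlop mice moved by -0.17, and 41 of the 94 genes remained members, compared with 140 of the 151 on the CD8 side. The split of members was then 44 to 204 in place of 94 to 151.

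On the CD8 side, receptor chains for IL-2, IL-15 and IL-18 were members whose CD4 and CD8 libraries did not overlap within either strain. *Il2rb* (ENSMUSG00000068227.9, chromosome 15, 78479256 to 78495271, minus strand) encodes CD122, the β chain that the IL-2 and IL-15 receptors share. In B6 mice the *Il2rb* level was 249, 307 and 296 CPM in CD4 libraries compared with 547, 585 and 562 CPM in CD8 libraries, and in FlipFlop mice it was 353, 339.9 and 352 CPM compared with 646, 624 and 533 CPM. Every CD8 library was above every CD4 library, across strains as well. The effect was -0.89 ± 0.06 (SE, adjusted p = 1.1e-05), with -1.0 in B6 and -0.78 in FlipFlop, and the difference between strains was not called (adjusted p = 0.22). *Il18r1* and *Il18rap*, which encode the chains of the IL-18 receptor, lie next to each other on chromosome 1 (40465552 to 40500854 and 40515362 to 40551705). *Il18r1* stood at 41.6, 44.3 and 48.4 CPM (CD4) and 73.6, 61.8 and 60.1 CPM (CD8) in B6 mice, and at 43.2, 51.5 and 49.6 CPM (CD4) and 86.7, 64.4 and 56.1 CPM (CD8) in FlipFlop mice. The CD8 libraries had 30.1, 30.9 and 33.8 CPM of *Il18rap* in B6 mice and 36.7, 14.5 and 15.4 CPM in FlipFlop mice, compared with 3.68, 6.04 and 16.2 CPM and 6.47, 4.86 and 8.66 CPM, respectively, in the CD4 libraries. For both genes the libraries did not overlap within a strain, but FlipFlop CD8 replicate 1 was the highest library of its group. The effects were -0.52 ± 0.10 (SE, adjusted p = 0.01) for *Il18r1* and -1.81 ± 0.31 (SE, adjusted p = 0.0057) for *Il18rap*, and both remained members without any 1 library. *Il18r1* was no member in a fit without eBayes.

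Of the 27 cytokine receptor chains tested, 4 were members higher in CD8 and 0 in CD4 libraries, beside 1.3% and 0.811% of all tested genes, the background for every list count that follows. Their median effect was -0.07, beside 0.01 over all tested genes. The other member was *Il12rb1*, a chain of the IL-12 receptor, with -0.19 in B6 and -1.45 in FlipFlop. Its B6 libraries overlapped, and it was lost in 9 of 12 fits that left out a library. Over those 12 fits the list held 3 to 4 members higher in CD8 and 0 to 1 higher in CD4 libraries, with 1 without B6 CD4 replicate 1. The start of *Il18rap* and that of *Klrk1*, which encodes the activating receptor NKG2D and is described next, are printed because both are CD8-side members with the letters TGTGGTT, a RUNX motif, near the start. The RefSeq sequences (GRCm38.p6) run from 250 bases before to 50 after the start, chr1:40515112-40515411 on the plus strand and chr6:129623815-129624114 on the minus strand, with the match on either strand in capitals.
Il18rap: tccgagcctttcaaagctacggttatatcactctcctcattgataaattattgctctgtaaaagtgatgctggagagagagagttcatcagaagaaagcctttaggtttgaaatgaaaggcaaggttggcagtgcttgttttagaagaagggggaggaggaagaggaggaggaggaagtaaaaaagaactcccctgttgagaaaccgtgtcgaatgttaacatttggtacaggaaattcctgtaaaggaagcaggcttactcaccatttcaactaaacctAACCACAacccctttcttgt
Klrk1: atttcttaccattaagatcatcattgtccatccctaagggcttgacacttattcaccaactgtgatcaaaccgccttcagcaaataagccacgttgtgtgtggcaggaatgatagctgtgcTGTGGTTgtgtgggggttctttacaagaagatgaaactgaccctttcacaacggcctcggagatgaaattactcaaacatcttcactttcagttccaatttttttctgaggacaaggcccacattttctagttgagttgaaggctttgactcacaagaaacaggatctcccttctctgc

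The letters occur on either strand in 4.66% of the 8758 tested genes with such a sequence, and a match is not shown to be a bound site. Both genes were picked for holding a match, which says nothing of other members. No count over the members is given here. A sequence was at hand for 109 of the 151 CD8-side members (72.2%) and 54 of the 94 CD4-side members (57.4%), beside 75.6% of all tested genes. *Klrk1* stood at 0.751, 1.65 and 1.59 CPM (CD4) and 2.88, 4.36 and 7.85 CPM (CD8) in B6 mice, and at 0.854, 1.05 and 0.855 CPM (CD4) and 3.54, 3.11 and 4.6 CPM (CD8) in FlipFlop mice. The CD8 libraries of each strain were all above its CD4 libraries, at low levels. The effect was -1.55 ± 0.21 (SE, adjusted p = 0.0011), with -1.54 in B6 and -1.57 in FlipFlop. *Runx2*, a relative of *Runx3*, was a member too. In B6 mice the *Runx2* level was 2.4, 5.46 and 5.05 CPM in CD4 libraries compared with 9.32, 11.2 and 10.2 CPM in CD8 libraries, and in FlipFlop mice it was 4.04, 4.68 and 7.99 CPM compared with 11.7, 10.1 and 8.37 CPM. Its effect was -1.03 ± 0.19 (SE, adjusted p = 0.0089), and the lowest CD8 library of FlipFlop mice was close to the highest CD4 library.

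**Figure D3:**
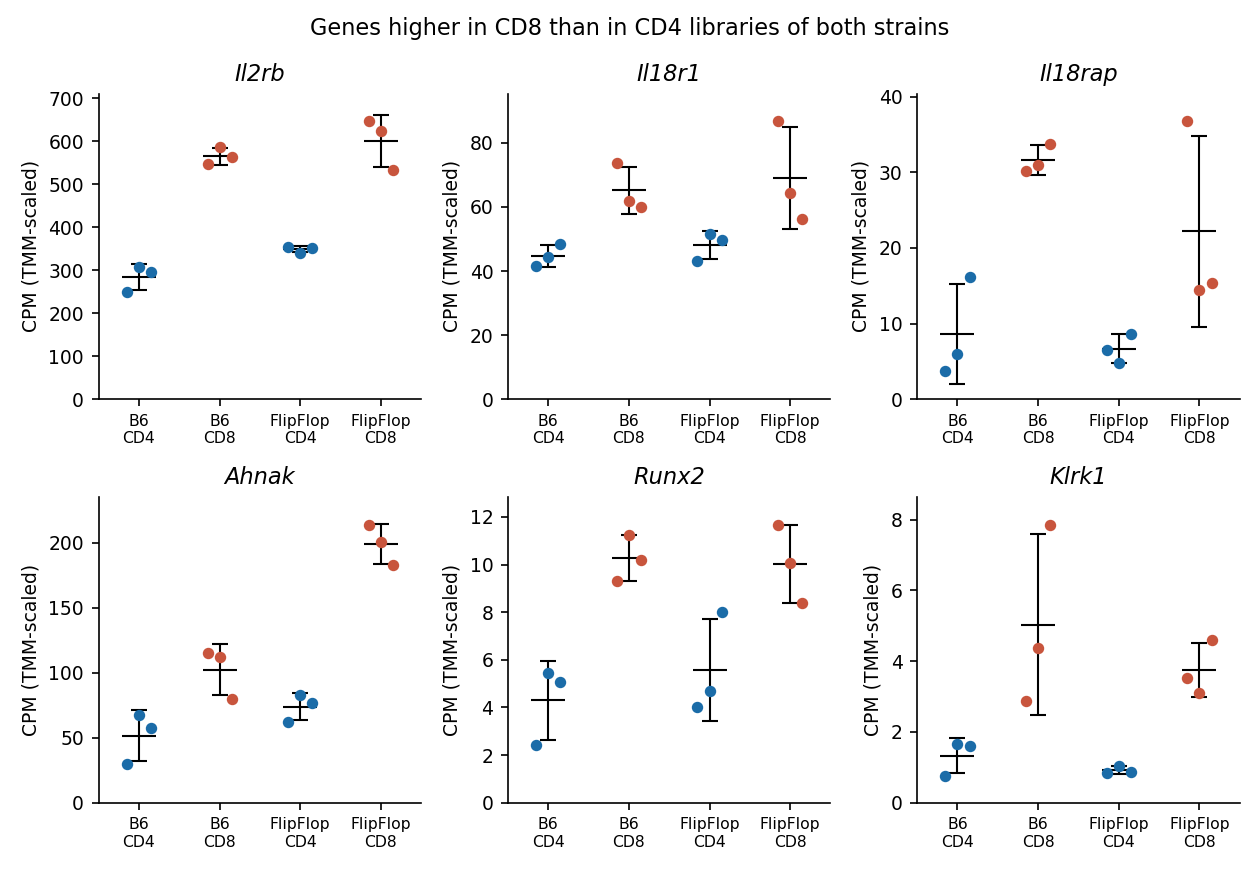
TMM-scaled CPM in every library for 6 members higher in CD8 libraries; points are libraries, horizontal lines are means and error bars are SD of 3 libraries. Within each strain every CD8 library (red) lies above every CD4 library (blue).

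Of the genes of memory and effector T cells, 36 were tested and 7 were members higher in CD8 (*Ahnak*, *Ccl5*, *Cxcr3*, *Hopx*, *Id2*, *Il2rb* and *Tbx21*) and 0 in CD4 libraries, and 8 more were called with opposite signs in the strains. The median effect of the list was -0.58, but its median difference was 0.08 in B6 and -1.11 in FlipFlop mice. *Ahnak* encodes a large scaffold protein. The CD8 libraries had 115, 112 and 79.5 CPM of *Ahnak* in B6 mice and 214, 200.5 and 183 CPM in FlipFlop mice, compared with 29.6, 67.6 and 57.7 CPM and 62.1, 82.9 and 76.8 CPM, respectively, in the CD4 libraries. Its libraries did not overlap within a strain, and the effect was -1.24 ± 0.18 (SE, adjusted p = 0.0015), with -1.04 in B6 and -1.43 in FlipFlop. *Hopx*, a homeodomain protein of effector and memory cells, was at 28, 28.4 and 26.7 CPM (CD4) and 51.1, 61.5 and 54.3 CPM (CD8) in B6 libraries and 37.1, 34 and 33.5 CPM (CD4) and 60.5, 50.7 and 44.8 CPM (CD8) in FlipFlop libraries. The effect was -0.77 ± 0.07 (SE, adjusted p = 9.8e-05). *Hopx* and other members named outside the naming rule were chosen after their values were seen.

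*Tbx21* stood at 3.19, 4.23 and 11.4 CPM (CD4) and 24.2, 24.3 and 25.2 CPM (CD8) in B6 mice, and at 10.4, 6.09 and 7.4 CPM (CD4) and 22.4, 9.23 and 10.3 CPM (CD8) in FlipFlop mice. *Tbx21* encodes the T-box factor T-bet, and its FlipFlop CD4 and CD8 libraries overlapped (effect -1.39 ± 0.28 SE, adjusted p = 0.013). The CD8 libraries had 82.2, 106 and 119 CPM of *Ccl5* in B6 mice and 164, 15.3 and 35.8 CPM in FlipFlop mice, compared with 9.47, 8.84 and 26.6 CPM and 37.2, 18.5 and 16.8 CPM, respectively, in the CD4 libraries. *Ccl5* encodes a chemokine, and its FlipFlop CD8 libraries spanned a wide range, with replicate 1 far above the others and an overlap with the CD4 libraries. Its effect was -1.94 ± 0.48 (SE, adjusted p = 0.036) and was lost in 8 of the 12 fits without 1 library. *Tbx21* and *Cxcr3*, a chemokine receptor of effector cells (-1.40 in B6 and -0.59 in FlipFlop), remained members in all 12 fits, although the FlipFlop libraries of *Cxcr3* also overlapped, and *Id2*, an inhibitor of E proteins (-0.07 in B6 and -0.52 in FlipFlop), in 6. The summed level of the list was 2437 to 2959 CPM in B6 CD4, 4324 to 4680.1 in B6 CD8, 3324 to 3419 in FlipFlop CD4 and 3826 to 4870.1 in FlipFlop CD8 libraries. In sorted T cells, more cells of a memory type and more RNA per cell cannot be told apart. Without FlipFlop CD8 replicate 1 the list held 6 members higher in CD8 and 0 higher in CD4 libraries, and over all 12 fits it held 5 to 8.

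Further members of the CD8 side had libraries that did not overlap within a strain. *Myo1f* stood at 14.4, 21.4 and 19.8 CPM (CD4) and 77.6, 71.6 and 65 CPM (CD8) in B6 mice, and at 28.1, 27.9 and 26.5 CPM (CD4) and 65.3, 44.3 and 36.5 CPM (CD8) in FlipFlop mice. *Myo1f* encodes a class I myosin, and the effect was -1.35 ± 0.13 (SE, adjusted p = 1.2e-04), larger in B6 than in FlipFlop mice (-1.94 and -0.77, adjusted p of the difference 0.0037). *Cdk6*, a cyclin-dependent kinase of the G1 phase, was at 13.3, 18.3 and 17 CPM (CD4) and 25.1, 28.2 and 22.5 CPM (CD8) in B6 libraries and 19.4, 19.6 and 19.2 CPM (CD4) and 29.2, 30.5 and 24.5 CPM (CD8) in FlipFlop libraries, and its effect was -0.57 ± 0.09 (SE, adjusted p = 0.0023). *Atp8a2*, a phospholipid flippase, had nearly the same difference in both strains (-0.71 in B6 and -0.71 in FlipFlop, effect -0.71 ± 0.12 SE, adjusted p = 0.0052). *Zcchc18* and *Armcx4*, both on chromosome X, differed by -0.82 and -0.61 in B6 and by -1.06 and -1.09 in FlipFlop mice. *Gpr34*, a lysophosphatidylserine receptor, had an effect of -0.85 ± 0.20 (SE, adjusted p = 0.031) and remained a member in 5 of the 12 fits without 1 library. *Zfp683*, encoding Hobit, a factor of resident memory cells, was low throughout, with 0.338, 0.516 and 0.398 CPM (CD4) and 2.51, 1.88 and 1.39 CPM (CD8) in B6 libraries and 1.05, 1.12 and 0.706 CPM (CD4) and 2.38, 2.15 and 2.46 CPM (CD8) in FlipFlop libraries (effect -1.17 ± 0.13 SE, adjusted p = 3.2e-04).

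Some CD8-side members agreed in sign although 1 strain carried the effect. *Itgae*, the integrin chain CD103, was at 32.8, 54.8 and 29.8 CPM in B6 CD4 and 274, 232 and 169 CPM in B6 CD8 libraries, whereas the FlipFlop CD4 (113, 76.4 and 50.3 CPM) and CD8 libraries (86.1, 98.6 and 75 CPM) overlapped. *Klre1*, an NK cell receptor gene, was above the 3-read floor only in B6 CD8 libraries by a wide margin (2.06, 2.28 and 4.17 CPM), which alone let it through the filter, and no FlipFlop library passed 0.20 CPM, so its sign there rests on values near the floor. In the other direction, *Tcrg-C2*, a TCR γ constant gene, was at 6.66, 6.48 and 6.8 CPM in FlipFlop CD8 and 0.657, 0.326 and 0.335 CPM in FlipFlop CD4 libraries, with a B6 difference of -0.11. *Trgv2*, a γ V segment, had -0.03 in B6 and -1.70 in FlipFlop and passed the filter only through its FlipFlop CD8 libraries (1.74, 1.46 and 1.46 CPM). The δ constant gene *Trdc*, which encodes part of the γδ TCR, was on the CD4 side with 0.46 in B6 and 0.15 in FlipFlop. It remained a member in 1 of the 12 fits without 1 library. Of 6 γ and δ genes tested, 2 were thus on the CD8 and 1 on the CD4 side, and 2 more were called with opposite signs. Without 1 library the CD8-side count was 0 to 2, with 0 without B6 CD8 replicate 3, where *Tcrg-C2* and *Trgv2* both lost their place. The count was 1 without B6 CD4 replicate 1 or 3 or any FlipFlop CD8 replicate, since without 1 of the latter *Trgv2* did not pass the filter, and *Trgv2* was no member without the TMM factor either.

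On the CD4 side, *Vipr1* (ENSMUSG00000032528.5, chromosome 9, 121642716 to 121672954, plus strand), the receptor for vasoactive intestinal peptide, ranked first after *Cd4* among members of at least 5 CPM without overlap, when ranked by the smaller of the strains' differences. *Vipr1* stood at 152, 149 and 147 CPM (CD4) and 90.7, 77.7 and 82 CPM (CD8) in B6 mice, and at 106, 143 and 141 CPM (CD4) and 80.9, 94.5 and 99.6 CPM (CD8) in FlipFlop mice. No CD8 library reached a CD4 library in either strain. The effect was 0.67 ± 0.08 (SE, adjusted p = 5.2e-04), with 0.84 in B6 and 0.49 in FlipFlop. *Gucd1* encodes a protein with a guanylyl cyclase domain. In B6 mice the *Gucd1* level was 85.8, 83.3 and 78.2 CPM in CD4 libraries compared with 63.6, 61.1 and 59.1 CPM in CD8 libraries, and in FlipFlop mice it was 71.5, 71.7 and 59.5 CPM compared with 54.9, 52.3 and 48.7 CPM. Its libraries did not overlap within a strain, and the effect was 0.40 ± 0.06 (SE, adjusted p = 0.0017). *Frat1*, an inhibitor of GSK3 in the Wnt pathway, differed by 0.39 in B6 and 0.31 in FlipFlop (effect 0.35 ± 0.07 SE, adjusted p = 0.011). These 3 genes remained members without the TMM factor and without any 1 library.

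Of 18 tested genes of the naive state, 3 were members higher in CD4 (*Ccr7*, *Igfbp4* and *Lef1*) and 0 in CD8 libraries, and 2 more were called with opposite signs. Leaving out 1 library gave 2 to 6 members higher in CD4, the lowest without B6 CD8 replicate 3 and the highest without B6 CD4 replicate 1. The list's median effect was 0.17, with -0.00046 in B6 and 0.37 in FlipFlop mice. *Lef1* stood at 477, 449.5 and 481 CPM (CD4) and 440.1, 443 and 427 CPM (CD8) in B6 mice, and at 522, 557 and 521 CPM (CD4) and 297, 325 and 327 CPM (CD8) in FlipFlop mice. *Lef1* encodes an HMG-box factor of the Wnt pathway, and its CD4 libraries were above its CD8 libraries in both strains, by little in B6. The effect was 0.43 ± 0.05 (SE, adjusted p = 2.2e-04), larger in FlipFlop than in B6 mice (0.75 and 0.10, adjusted p of the difference 9.2e-05). In B6 mice the *Ccr7* level was 823, 738 and 713 CPM in CD4 libraries compared with 654, 699 and 618 CPM in CD8 libraries, and in FlipFlop mice it was 766, 771 and 660.0 CPM compared with 577, 571 and 547 CPM. *Ccr7*, the receptor that brings naive T cells into LN, had an effect of 0.29 ± 0.06 (SE, adjusted p = 0.015) and lost its call without B6 CD8 replicate 3. *Igfbp4*, a binding protein of insulin-like growth factors, was higher in CD4 libraries by 1.15 in B6 mice (1392, 1294 and 995 CPM against 568, 645 and 443 CPM), while its FlipFlop libraries overlapped.

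**Figure D4:**
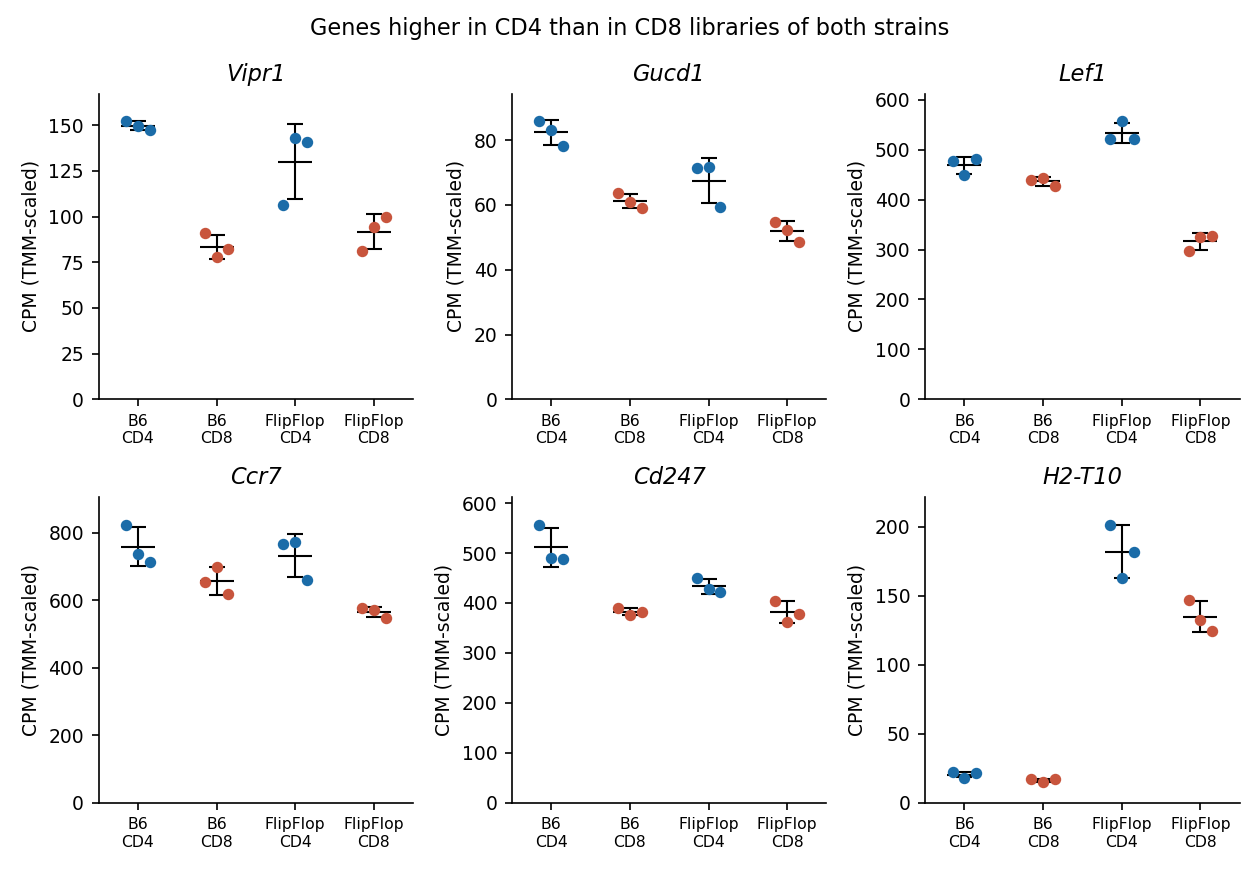
TMM-scaled CPM in every library for 6 members higher in CD4 libraries; points are libraries, horizontal lines are means and error bars are SD of 3 libraries. Within each strain every CD4 library (blue) lies above every CD8 library (red), and H2-T10 is also far higher in FlipFlop than in B6 mice.

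TCR signalling genes of the CD4 side had small effects that depended on the scaling. *Cd247*, the CD3ζ chain, was at 556, 490.0 and 488 CPM (CD4) and 391, 376 and 382 CPM (CD8) in B6 libraries and 450.1, 428 and 422 CPM (CD4) and 404, 361 and 379 CPM (CD8) in FlipFlop libraries, with an effect of 0.30 ± 0.05 (SE, adjusted p = 0.0046). Without the TMM factor its FlipFlop difference was 0.0092, and the effect was still called. *Lat*, the adaptor of activated T cells, and *Dgka*, a diacylglycerol kinase, had effects of 0.22 and 0.19, and neither was a member without the TMM factor. *Lat* was a member in 2 and *Dgka* in 6 of the 12 fits without 1 library, and *Lat* was also lost under median-of-ratios scaling. *Trac*, the TCR α constant gene, differed by 0.52 in B6 and 0.02 in FlipFlop, and without the TMM factor its FlipFlop difference turned to -0.16, and it was a member in 5 of the 12 fits without 1 library. *Sla*, an adaptor that lowers TCR levels, was on the CD8 side with -0.21 and remained a member in 2 of the 12 fits without 1 library. Of 45 TCR signalling genes 3 were members on the CD4 and 1 on the CD8 side (median effect 0.08), and of 16 T cell identity genes 3 and 0 (median 0.13). Over the 12 fits without 1 library the CD4-side counts were 1 to 3 and 1 to 3, and that of T cell identity genes was 1 when the library left out was B6 CD8 replicate 1, 2 or 3, FlipFlop CD4 replicate 1 or 2, or FlipFlop CD8 replicate 2 or 3.

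Other named members of the CD4 side were *Limd2*, *B3galt4*, *Rasal1*, *Ubtd1*, *2810001G20Rik* and *AC160336.1*. *Limd2*, a LIM domain protein, had a difference of 0.26 in B6 and in FlipFlop mice (effect 0.26 ± 0.06 SE, adjusted p = 0.033), but it was a member in 3 of the 12 fits without 1 library and was not one without the TMM factor. *2810001G20Rik* had the largest effect of the 6 at 0.59 ± 0.12 (SE, adjusted p = 0.016). *Rasal1*, a RAS GTPase-activating protein, *Ubtd1* and *AC160336.1* were not called without the TMM factor and were members in 2, 2 and 9 of the 12 fits without 1 library, whereas *B3galt4*, a galactosyltransferase, was, although leaving out a library ended its call in 6 of 12 fits (effect 0.29 ± 0.07 SE, adjusted p = 0.023). *H2-T10*, a class Ib MHC gene that the annotation lists as a polymorphic pseudogene, was the 1 member among 26 class I MHC and peptide transport genes. *H2-T10* stood at 22, 18.1 and 21.2 CPM (CD4) and 16.9, 14.9 and 17 CPM (CD8) in B6 mice, and at 201, 163 and 182 CPM (CD4) and 147, 133 and 125 CPM (CD8) in FlipFlop mice. Its CD4 libraries were above its CD8 libraries in each strain (effect 0.37 ± 0.07 SE, adjusted p = 0.01), while FlipFlop exceeded B6 by 3.07 (adjusted p = 4.5e-11). Reads of this gene can be shared with other class Ib genes, so its level is uncertain.

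The lists of TCR signal reporters, metabolism and the cell cycle held no members in the fit with all libraries. None of the 24 TCR signal reporter genes was a member (median 0.05), and 3 were called with opposite signs, their median difference being 0.79 in B6 and -0.49 in FlipFlop mice. The 88 cytosolic ribosomal protein genes had a median effect of 0.19, with -0.16 in B6 and 0.56 in FlipFlop mice, and 0 were called. Among 78 nuclear respiratory chain genes (median 0.07), 15 mitochondrially encoded genes (-0.16), 35 sterol and fatty acid synthesis genes (0.05) and 49 interferon-stimulated genes (0.01) 0 were called as well. Of 38 cell cycle genes 8 were called, all with opposite signs (median 0.42 in B6 and -1.46 in FlipFlop mice). Outside that list, 2 cell cycle genes picked after their values were seen, *Chek1* and *Foxm1*, were members on the CD8 side, with -0.30 in B6 and -1.01 in FlipFlop for the checkpoint kinase *Chek1* and -0.22 in B6 and -0.99 in FlipFlop for the transcription factor *Foxm1*, whose B6 libraries overlapped. The glycolysis (22 genes, median -0.02), STAT and SOCS (23, -0.04), immediate early and dissociation stress (31, 0.05), GIMAP (8, 0.07), sialyltransferase and O-glycan (21, -0.06) and follicular helper lists (9, -0.0016) held 0 members. Some of these zeros moved when 1 library was left out. Cell cycle genes gave up to 3 members higher in CD8, 3 without FlipFlop CD8 replicate 3 and 1 without B6 CD4 replicate 2 or FlipFlop CD4 replicate 1. Immediate early and dissociation stress genes gave up to 2 higher in CD4, 2 without B6 CD4 replicate 2 and 1 without B6 CD4 replicate 1 or 3 or FlipFlop CD8 replicate 1. Glycolysis genes gave 1 higher in CD8 without B6 CD4 replicate 1 or FlipFlop CD8 replicate 2.

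Small numbers of members came from other lists. Of 14 BCL2 family genes the BH3-only death genes *Bbc3* (Puma) and *Pmaip1* (Noxa) were higher in CD8 libraries. *Bbc3* stood at 17.9, 18.3 and 14.8 CPM (CD4) and 21, 24.1 and 18.6 CPM (CD8) in B6 mice, and at 9.88, 10.1 and 10.9 CPM (CD4) and 15.1, 13.5 and 15.2 CPM (CD8) in FlipFlop mice. Its libraries did not overlap within a strain (effect -0.40 ± 0.08 SE, adjusted p = 0.011), and *Pmaip1* differed by -0.65 in B6 and -0.28 in FlipFlop and was a member in 7 of the 12 fits without 1 library. The median effect of this list was -0.10. The lineage factors and effectors (19 tested) held *Lef1* on the CD4 side and *Tbx21* and *Id2* on the CD8 side, the chemokine receptors (17 tested) *Ccr7* and *Cxcr3* on opposite sides, and the regulatory T cell (16 tested) and integrin lists (16 tested) *Itgae*. *Itgae* was no member without FlipFlop CD4 replicate 3, so both lists then held 0, and the integrin list held 0 to 2 over the 12 fits. The lineage factor list held 1 to 2 on the CD4 and 1 to 2 on the CD8 side, and the chemokine receptors 0 to 1 (0 without B6 CD8 replicate 3) and 1 to 2. The medians of these 4 lists were 0.13, -0.20, -0.36 and -0.11. Lists with a large median of opposite sign in the strains, such as the regulatory T cell list with 2.82 in B6 and -3.87 in FlipFlop mice, followed the lineage.

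**Figure D5:**
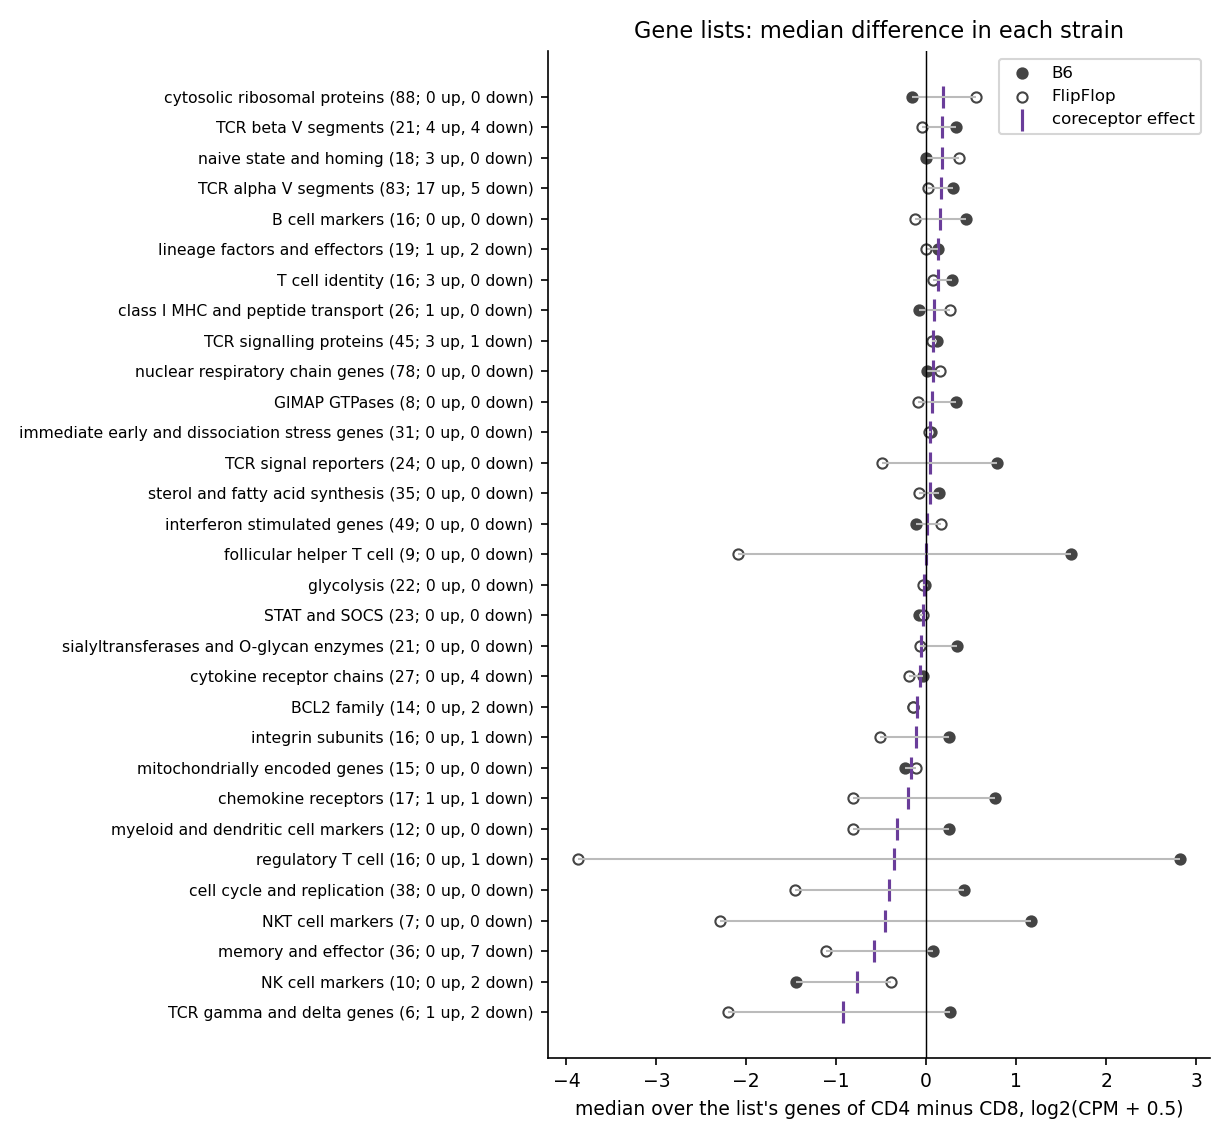
Median CD4 minus CD8 difference over the tested genes of each list (log2(CPM + 0.5)), filled for B6 and open for FlipFlop mice, with the median coreceptor effect as a vertical mark. Labels give the genes tested and the members higher in CD4 (up) and CD8 (down). Several lists, among them the BCL2, NK cell marker and T cell identity lists, have both strains on 1 side of 0, whereas regulatory T cell genes lie far apart.

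The 16 T cell identity genes tested summed to 8211 to 11493 CPM over the 12 libraries, so T cell markers were present in all. The summed NK cell markers were 185 to 235 CPM in B6 CD8 and 128 to 156 CPM in FlipFlop CD4 libraries, against 26.1 to 31.4 CPM in B6 CD4 and 48.2 to 67.8 CPM in FlipFlop CD8 libraries, the order of the lineage, with 2 of 10 tested as members. Their median difference was below 0 in both strains, at -1.44 in B6 and -0.39 in FlipFlop mice, so in FlipFlop mice the median and the sum pointed opposite ways (median effect -0.77). The 2 members were *Klrk1* and *Klre1*, and *Klre1* passed the filter only through its B6 CD8 libraries. Without B6 CD8 replicate 1, 2 or 3 the count was 1. NKT cell markers (7 tested, median effect -0.46) were highest in FlipFlop CD8 libraries at 206 to 209 CPM and reached at most 145 CPM elsewhere. B cell markers summed to 685 to 933 CPM, and 0 of 16 were called (median effect 0.16). The 12 myeloid markers tested (median effect -0.32), 4 red blood cell markers (0.09) and 1 stromal marker held 0 members, and 0 platelet markers passed the filter. Without B6 CD4 replicate 3 or FlipFlop CD8 replicate 2, 1 myeloid marker was a member. The part of other cells in the coreceptor effects was not tested.

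Some measures were not used by the rule. A strain effect was called in 111 of the 245 members (45.3%), beside 31.2% of all tested genes. Of these, 13 of 38 on the CD4 and 39 of 73 on the CD8 side were higher in FlipFlop mice, and by the labelled ages strain cannot be told apart from age. The same split over all tested genes was not counted, so these shares have no background. By type, 200 members were protein coding, 31 were V segments, 3 were TCR constant genes, 6 were lincRNAs and 4 antisense genes, whose values may include reads from their partners, and 1 was the polymorphic pseudogene *H2-T10*. Chromosomes 14 and 6, which carry the Tra and Trb loci, held 33 and 22 members. Without V segments, 11 of 403 tested genes on chromosome 14 (2.73%) and 14 of 550 on chromosome 6 (2.55%) were members. The share over all tested genes was 2.11%. These counts still hold *Trac* and *Trdc* on chromosome 14. On chromosome 6 they still hold *Cd4*, *Cd8a* and the lincRNA *5830405F06Rik*, which spans *Trbv4* and *Trbv5*.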

How the data were processed

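CD4 and CD8 T cells from LN of B6 and FlipFlop mice gave 12 RNA-seq libraries, 3 in each of 4 groups. The authors extracted RNA, made libraries with a SMARTer low-input kit, sequenced paired-end reads and aligned them to mm10 with STAR per the paper's methods, while the submitters' processing notes name Trimmomatic, TopHat and mm10; the counting program and annotation are not given in the sources used here. The deposited table holds a normalized signal made by the authors, CPM divided by a TMM factor, so columns sum to between 875501 and 1081793. Whole reads were 85.0% to 86.7% of values under 100 CPM at a tolerance of 0.01 reads, too few for count tests.

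Genes with at least 1 CPM in 3 libraries were fitted on log2(CPM + 0.5), which understates changes of low genes, with limma 3.58.1 (eBayes with trend, R 4.3.3), 4 group means, all 12 libraries and no replicate block, and p-values were adjusted by Benjamini-Hochberg across the 11595 genes. The fit was tested on simulated data. All 12809 identifiers matched GENCODE M21 (GRCm38). Named genes are *Cd4*, *Cd8a* and *Cd8b1*, then the 12 members on each side, of at least 5 CPM and with libraries that do not overlap, whose smaller strain difference was largest, up to 4 members of each list, and 6 lineage genes. The rule, lists and named members were chosen with earlier results of these data known. The gene just inside the threshold is not reported here. The alternatives were other pseudocounts, filters, scalings, thresholds, error models and replicate blocks, and each library left out.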

Additional observations from a re-analysis of the deposited data

Results flagged for a closer look

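In 122 of the 245 members the CD4 minus CD8 differences of B6 and FlipFlop mice differed from each other in size, although their sign was the same. This test (limma, adjusted p under 0.05 for the difference) passed for 39.3% of all tested genes, whatever their signs. Among the 12 members ranked first on each side it passed for 5. As the B6 minus the FlipFlop difference divided by 2, on the log2(CPM + 0.5) scale, it was 2.58 ± 0.17 (SE) for *Cd4* (adjusted p = 1.4e-07) and -1.71 ± 0.15 for *Cd8a* (adjusted p = 1.6e-06), the genes of the altered loci. For *Trav9n-4* it was 0.44 ± 0.10 (adjusted p = 0.0032), for *Trbv12-2* -0.39 ± 0.08 (adjusted p = 0.002) and for *Myo1f* -0.58 ± 0.13 (adjusted p = 0.0037). In all 5 the B6 difference was the larger, and all 6 libraries of each coreceptor showed its direction within their strain.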

How the results depend on the processing

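The coreceptor effect was called for 636 genes, of which 245 were members. Leaving out each library in turn gave 352 to 605 called genes and 137 to 263 members, of which 64 to 116 had a lineage effect and 55 to 121 a strain effect called. Members fell by over 1.5 times without B6 CD8 replicate 2 (141), B6 CD8 replicate 3 (137), FlipFlop CD4 replicate 2 (162) and FlipFlop CD8 replicate 2 (157), and called genes did so without these 4 (378, 372, 402 and 352) and without FlipFlop CD8 replicate 1 (414). In all 12 such fits 109 members remained members. Genes averaging at least 5 CPM gave 301 called genes and 121 members, 58 with a lineage and 58 with a strain effect, from fewer genes tested. An adjusted p under 0.01 gave 254 and 102, p under 0.0001 with over 5-fold 2 and 2, a call within each strain 51 members and libraries without overlap 100 members. Pseudocounts of 0.1 and 1, no filter, median-of-ratios scaling, values without the TMM factor and fits without eBayes or without its trend left the count within 1.5 times (171 to 261 members), but without the TMM factor 41 of the CD4-side members remained and the FlipFlop difference of 29 changed sign; the cause was not tested.

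The replicate numbers correlated in B6 at 0.18, 0.089 and 0.35 and in FlipFlop mice at 0.44, 0.27 and 0.51; unmatched numbers gave -0.35 to 0.16 and -0.38 to -0.037. Every FlipFlop library thus correlated best with its own number, and so did every B6 library except B6 CD4 replicate 2. The deposited headers also number CD4 and CD8 libraries in turn by replicate, but no label says that a number is a mouse. Since 1 matched value was under 0.1, the main fit did not take the numbers as pairs, and the counts above are from unpaired fits. A replicate block within each strain gave 954 called genes and 386 members, a rise of over 1.5 times in members. A block across strains gave 766 and 311. V segments relative to their locus and genes of identical values counted once, chosen after seeing the data, gave 240 and 241 members. Of 1343 effects of named genes under an alternative, 1181 kept direction and side of the threshold, 155 lost the call, 7 gained it and 0 reversed; of 296 counts of lists, 275 were within 1.5 times. Depth limits the members under 5 CPM (91 of 245).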

Other observations

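Some members with clear differences in both strains belong to none of the lists and were picked here after their values were seen. *5830411N06Rik*, a scavenger receptor gene on the CD8 side, was at 0.902, 1.45 and 2.57 CPM (CD4) and 4.57, 4.92 and 4.41 CPM (CD8) in B6 libraries and 0.558, 0.254 and 0.297 CPM (CD4) and 3.92, 2.84 and 1.83 CPM (CD8) in FlipFlop libraries, and both strains were separated. *Plekhg3*, a guanine nucleotide exchange factor, was at 1.73, 2.36 and 0.796 CPM (CD4) and 3.48, 3.8 and 2.88 CPM (CD8) in B6 libraries and 0.427, 0.544 and 0.26 CPM (CD4) and 5.4, 5.75 and 4.83 CPM (CD8) in FlipFlop libraries, with -0.94 in B6 and -2.69 in FlipFlop (adjusted p of the difference 0.0014). *Arl4d*, a small GTPase of the ARF family, was at 1.28, 1.19 and 1.47 CPM (CD4) and 5.65, 6.08 and 7.26 CPM (CD8) in B6 libraries and 1.15, 1.05 and 1.67 CPM (CD4) and 3.37, 3.31 and 3.23 CPM (CD8) in FlipFlop libraries, an effect of -1.51 ± 0.10 (SE, adjusted p = 8.6e-06) in limma.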
